A study of Mus musculus and Rattus norvegicus with 11 samples.

Results

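Vascular EC are the 302 cells that carry this name in the deposited annotation of the rat nerve, out of 12360 annotated rat cells and 12500 cell barcodes. They came from 2 libraries of naive Lewis rats, untreated animals of an inbred strain, with 166 of 6424 annotated cells in library 1 (2.58%, exact 95% interval 2.21% to 3.00%) and 136 of 5936 in library 2 (2.29%, 1.93% to 2.70%). Sciatic nerves were digested with Collagenase/Dispase and DNase I, the mononuclear layer of a Percoll gradient was kept with no sort, and unique molecules (UMIs) were counted by droplet sequencing of the 3' ends of RNA. The labels do not say whether the libraries came from separate animals, give no age or sex, and do not say which of 2 sequencing instruments read each. The wider study covered healthy mouse and rat nerve and autoimmune neuritis in mice. The rat arm has a single group, so every value here is a description of 2 libraries, with no test between conditions.

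Arterial endothelium lines vessels that carry blood away from the heart, and it is known for the connexins Gja4 and Gja5, the transcription factor Sox17 and the Notch ligand Dll4. Lymphatic endothelium drains fluid and leukocytes from tissue. It is set up by the transcription factor Prox1, answers to VEGF-C through the receptor Flt4, and secretes the chemokine Ccl21 that guides dendritic cells and T cells into the vessel. In peripheral nerve, lymphatic vessels are known from the outer connective tissue, while the inner compartment has a capillary bed with tight barrier junctions.

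The libraries held 19074026 and 17958844 UMIs, of which vascular EC gave 491651 and 411917, with medians of 2204 and 2334 UMIs per cell. The second endothelial type of the annotation, microvasculatory EC, had 158 and 133 cells and medians of 3242 and 3331. Of the 59 barcode sequences that both libraries share, 3 were vascular EC in either library and 0 in both. Levels below are CPM, the UMIs of a gene summed over a type in a library and scaled to an equal total, and intervals cover counting error only.

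The genes of the lymphatic list were high in vascular EC, in both libraries. Mmrn1 (ENSRNOG00000024986), a multimerin secreted by lymphatic endothelium, stood at 553 CPM in library 1 and 619 in library 2. Microvasculatory EC had 3.22 and 1.86 CPM, from 3 UMIs in all, and vascular EC held 86.8% of the 607 Mmrn1 UMIs of all annotated rat cells. Flt4 (ENSRNOG00000002511), the VEGF-C receptor, stood at 108 and 102 CPM against 4.83 CPM and 0. Prox1, the lymphatic master regulator, stood at 46.8 and 58.3 CPM against 8.04 and 9.32. The 3 genes were among the 410 of 6143 genes (6.67%) more than 2-fold higher in vascular EC in each library. The annotation was drawn from these same counts, so this is a description.

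Ccl21 was the most abundant of these genes, at 25917 and 19657 CPM in vascular EC. Every other annotated type lay between 163 and 323 CPM, with T cells (TC) at 174 and 226. T cells are not known to make Ccl21 and served as the measure of free RNA. Ccl21 was found in 36.9% of T cells and 59.9% of vascular EC cells, at median depths of 1931 and 2180 UMIs in T cells. By contrast Mmrn1 was found in 176 of 302 vascular EC cells (58.3%) and in 2 of 975 T cells. Lyve1, a hyaluronan receptor of lymphatic vessels and resident macrophages, stood at 1273 and 1010 CPM in vascular EC and at 502 and 460 in the macrophage type PF4 MC. Pdpn, the mucin-type glycoprotein podoplanin, stood at 508 and 517 CPM in vascular EC and at 349 and 324 in nmSC. Reln, an extracellular matrix glycoprotein of lymphatic endothelium, stood at 44.8 and 43.7 CPM in vascular EC and at 25.5 and 28.1 in nmSC. Lyve1, Pdpn and Reln were therefore highest in vascular EC but shared with other cells of the nerve, and only 6.96% of all Pdpn UMIs lay in vascular EC.

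**Figure D1:**
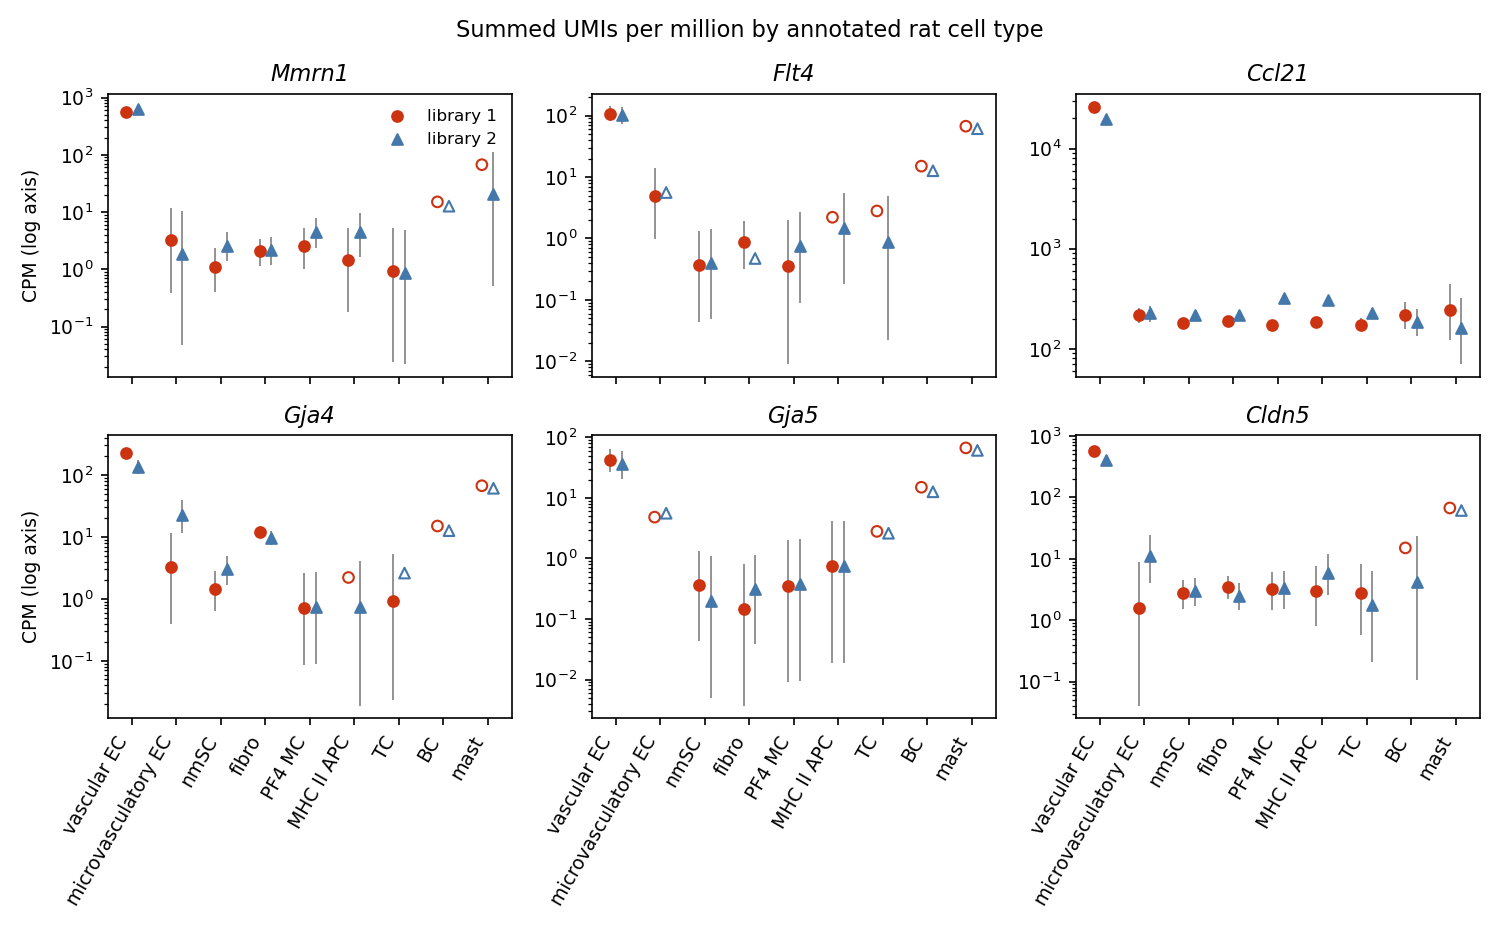
CPM of 6 genes on a log axis by annotated rat cell type, with red circles for library 1 and blue triangles for library 2. Bars are exact 95% Poisson intervals, and open symbols mark 0 UMIs, drawn at the level of 3 counts. Both libraries of vascular EC are the highest filled points for each gene, Mmrn1 at 553 and 619 CPM, while Ccl21 lies between 163 and 323 CPM in every other type.

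Arterial genes were present at lower levels, and not all of them separated the 2 endothelial types. Gja4 (connexin 37) stood at 228 and 136 CPM in vascular EC against 3.22 and 22.4 in microvasculatory EC. Gja5 (connexin 40) stood at 42.7 and 36.4 CPM, with 36 UMIs in vascular EC and 0 in microvasculatory EC, which is at least 15.4-fold higher over a floor of 3 counts in both libraries together. Dll4 stood at 69.2 and 82.5 CPM against 6.44 and 14.9. Sox17 went the other way in both libraries, at 59.0 and 53.4 CPM against 74.0 and 76.4 in microvasculatory EC. Efnb2, the ephrin ligand of arterial endothelium, stood at 50.9 and 63.1 CPM against 32.2 and 31.7, and nmSC had 29.7 and 36.6. Of the remaining arterial core genes, Bmx had 1 UMI in vascular EC and the Notch effector Hey1 and the semaphorin Sema3g had 0.

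Cldn5 (ENSRNOG00000045811), a tight junction claudin of endothelium, stood at 567 and 403 CPM in vascular EC and at 1.61 and 11.2 in microvasculatory EC. It was found in 174 vascular EC cells (57.6%), in 0.513% of T cells and in 0.395% of B cells. General endothelial genes were shared. Cdh5, the adherens junction cadherin, stood at 122 and 158 CPM against 167 and 153, and Tie1 at 191 and 189 CPM against 145 and 102.

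Among the 6143 genes with at least 20 UMIs in the 2 endothelial types, 410 (6.67%) were more than 2-fold higher in vascular EC in each library and 312 (5.08%) more than 2-fold lower. TMM scaling moved all ratios by -0.13 and -0.15 on the log2 scale and gave 335 higher and 369 lower. The annotation itself was drawn from these counts, so the lists are described against that background and not tested. All 7 lymphatic core genes were higher, with a median log2 ratio of 5.34 against 0.11 over all genes. Of the other lymphatic genes, 6 of 9 with enough UMIs were higher, among them the transcription factors Foxc2, Tbx1 and Maf, and Fgl2 was lower. Of the 5 arterial core genes with enough UMIs, Gja4, Gja5 and Dll4 were higher and Sox17 and Efnb2 were neither. The other arterial genes split evenly, with Unc5b, Fbln5 and Ltbp4 higher and Nrp1, Fbln2 and Cytl1 lower among 13.

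Genes of veins and capillaries were mostly lower in vascular EC. The venous list had 5 of 9 genes lower and only Ephb4, a receptor of veins and lymphatics, higher. Selp (P-selectin) had 79 UMIs in vascular EC against 6389, 61.0 and 119 CPM against 5720 and 5281, and was 63.1-fold lower with both libraries summed. Icam1, an adhesion receptor for leukocyte integrins, did not differ by 2-fold, at 1971 and 1843 CPM against 2000 and 1756. The capillary list had 4 of 7 genes lower, such as Plvap, the diaphragm protein of fenestrated vessels, at 195 and 141 CPM against 3248 and 2744, and the carbonic anhydrase Car4 higher. Fabp4, a fatty acid carrier of capillaries, stood at 313 and 243 CPM against 5334 and 4373. Of the 12 general endothelial genes, 0 were higher, and Flt1, Esam, Eng and Clec14a were lower. Of 7 barrier genes, Cldn5 was higher and the Wnt effector Lef1 lower, and the glucose transporter Slc2a1 was neither, at 67.1 and 48.6 CPM against 51.5 and 31.7.

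Genes of signalling, flow response and leukocyte traffic moved in both directions. Of 11 VEGF and angiopoietin genes, Flt4, Vegfa and Pgf were higher and Flt1, Nrp1 and Angpt2 lower. Of 5 shear stress and tone genes, Klf4 and Ednrb were higher, and Klf4, a transcription factor induced by flow, stood at 1438 and 1238 CPM against 507 and 406. Of 12 chemokine and adhesion genes, Ccl21, Ccl2, Cxcl10 and the decoy chemokine receptor Ackr4 were higher and Vcam1, Selp and Sele lower. Of 14 elastic fibre and basement membrane genes, Fbln5, Ltbp4, Emilin1 and Lamb1 were higher and Fbln2 and Lama5 lower.

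**Figure D2:**
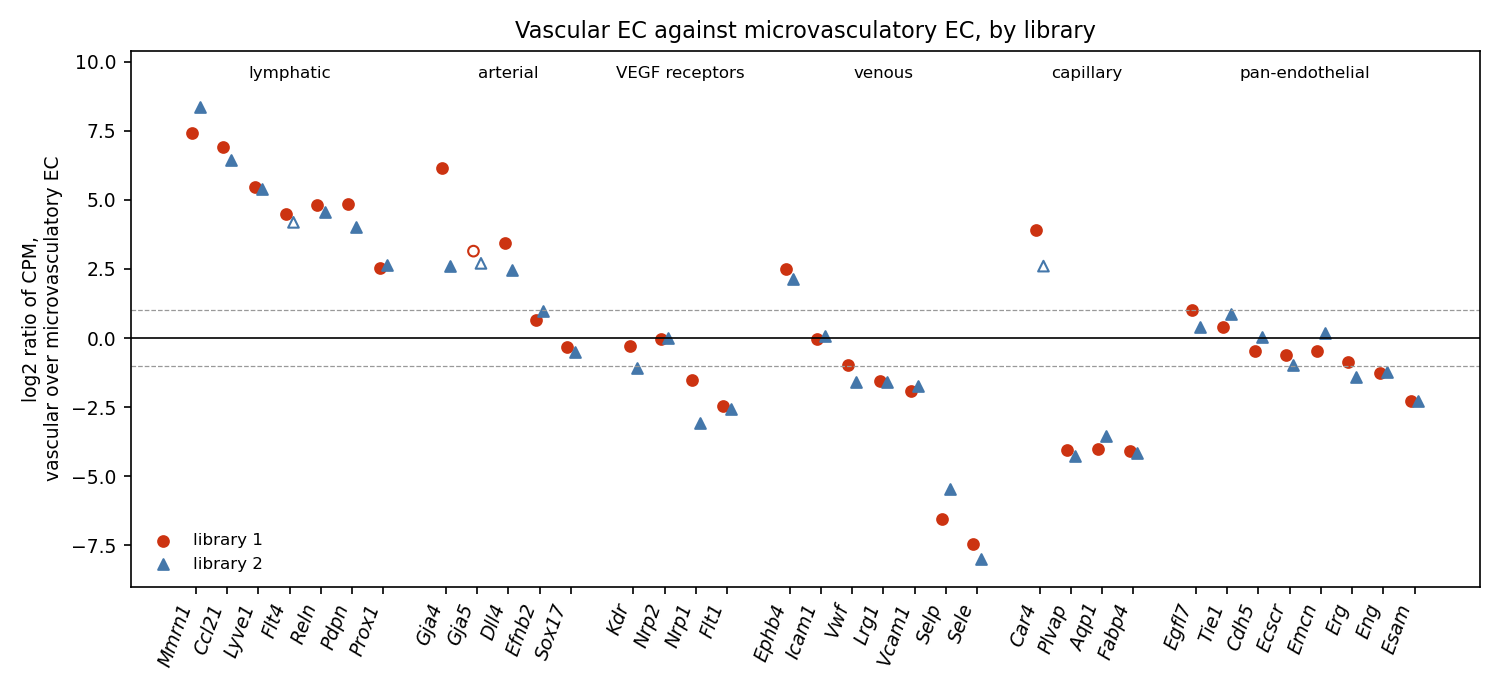
Log2 ratio of CPM in vascular EC over microvasculatory EC for list genes, with red circles for library 1 and blue triangles for library 2; open symbols have 0 UMIs in microvasculatory EC, replaced by 3 counts, and dashed lines mark 2-fold. All 7 lymphatic genes lie above the upper line in both libraries, Sox17 lies just below 0, and Selp and Sele lie lowest.

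The 12 genes highest over microvasculatory EC, ranked by the weaker library, were Mmrn1, Ccl21, Lyve1, Dusp2, Cldn5, Agt, Mt3, Krt79, Reln, Ptx3, Tc2n and Flt4. Mmrn1 led at 225-fold with both libraries summed (95% interval 76.6 to 1095), since its lower level rests on 3 UMIs. Agt, the precursor of angiotensin, stood at 191 and 189 CPM against 6.44 and 1.86. Ptx3, a secreted pentraxin of innate immunity, had 103 UMIs against 1. The 6 lowest were Sele, LOC500712, Selp, Cxcl9, Lrat and Ubd. Sele (E-selectin) had 3 UMIs in vascular EC and 776 in microvasculatory EC.

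Cell by cell, lymphatic genes were found in more vascular EC than arterial ones: 31 cells had 0 UMIs of the lymphatic core list and 153 had 0 of the arterial core list. With at least 2 UMIs of a core list as the limit, 191 cells (63.2%, interval 57.5% to 68.7%) had the lymphatic list alone, 33 (10.9%, 7.64% to 15%) the arterial list alone, 38 (12.6%) both and 40 (13.2%) neither. The lymphatic share was 64.5% in library 1 and 61.8% in library 2, and the arterial share 14.5% and 6.62%. These classes are ranges of a count, not types: 42 cells had exactly 1 lymphatic UMI and 42 exactly 2, and 78 cells had exactly 1 arterial UMI and 23 exactly 2. The lymphatic limit was also reached by 10.9% of T cells, 49.2% of PF4 MC and 41.9% of nmSC, whereas the arterial limit was reached by 0 of 975 T cells and 0.919% of nmSC. In microvasculatory EC 26.8% of cells reached the lymphatic limit and 9.28% the arterial one, against 75.8% and 23.5% in vascular EC. Without Ccl21 and Pdpn, the lymphatic limit was reached by 59.6% of vascular EC, 0.410% of T cells and 0.817% of nmSC, but still by 26.7% of PF4 MC.

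Cells of the class with both lists were deeper, with a median of 4336 UMIs against 2271 in the lymphatic class and 2485 in the arterial class. When every vascular EC cell was thinned to 1000 UMIs, the class with both lists held 3.97% of cells and the class with neither 41.7%. The part of cell depth in the class with both lists was not tested further. Scrublet called 5 of the 302 cells doublets, in a run that called 1.62% and 2.29% of the annotated cells of the 2 libraries, and without them the shares were 62.6%, 11.1%, 12.8% and 13.5%.

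Pairs of genes showed which arterial genes went with lymphatic ones. Of the 67 cells with Flt4, 52 also had Mmrn1. Of the 17 cells with Gja5, 1 had Mmrn1 and 0 had Flt4, and of the 24 cells with Sox17, 1 had Mmrn1. Dll4 was different: 37 of its 55 cells (67.3%) had Mmrn1, beside 58.3% over all vascular EC, and 1 had Gja5. Efnb2 had Mmrn1 in 27 of its 44 cells (61.4%). Gja4 lay between, with Mmrn1 in 29 of its 67 cells (43.3%), while 11 of the 17 Gja5 cells and 12 of the 24 Sox17 cells had Gja4. In total 197 cells had Mmrn1, Flt4 or Prox1, 33 had Gja5 or Sox17, and 3 had genes of both sets. In microvasculatory EC 13 of 291 cells had the former set and 64 had the latter.

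The 302 cells were clustered on genes outside every list. Some list genes then lay in separate clusters, while others, such as Cdh5 and Notch1, had at least 12.5% of their UMIs in each. Clusters 1 and 2, with 107 and 99 cells, held 61.4% of the vascular EC UMIs and 88.1% of those of Mmrn1, 85.3% of Flt4 and 80.9% of Prox1. Clusters 3 and 4, with 42 and 28 cells, held 26.7% of all UMIs, 1.14% of Mmrn1, all 36 Gja5 UMIs and 94.1% of Sox17. Cluster 5, with 26 cells, was led by Abca8a, Sbsn, Cthrc1 and Myoc and held 11.95% of all UMIs and 10.8% of Mmrn1. Of its cells 18 were in the lymphatic class, 5 in the class with both lists and 0 in the arterial class. Of the Scrublet calls, 3 lay in cluster 3, 2 in cluster 5 and 0 in the others. Clusters 3 and 5 were also deeper, with medians of 3141 and 4022 UMIs against 2176, 2165 and 2452 in clusters 1, 2 and 4. The deposited name therefore covers cells with lymphatic genes as their majority, 114 of 166 cells in clusters 1 and 2 in library 1 and 92 of 136 in library 2, and the clusters that hold Gja5 and Sox17 as a minority, 41 and 29 cells. Within clusters 3 and 4 the classes were mixed, with 12 and 2 cells in the lymphatic class and 12 and 19 in the arterial class. Of the 55 lymphatic core UMIs in cluster 3, 34 were Ccl21, 12 Lyve1 and 5 Mmrn1. Ccl21 stood there at 195 and 204 CPM in the 2 libraries, against a mean of 200 CPM in T cells, the measure of free RNA. Lyve1 stood there at 87.6 and 43.7 CPM against 17.3, and Mmrn1 at 38.9 and 14.6 against 0.903. The part of free RNA in these counts was not tested. Clusters keep their numbers here, because venous and capillary list genes (Vwf, Aqp1 and Fabp4) stood beside Gja5 among the leading genes of cluster 3.

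**Figure D3:**
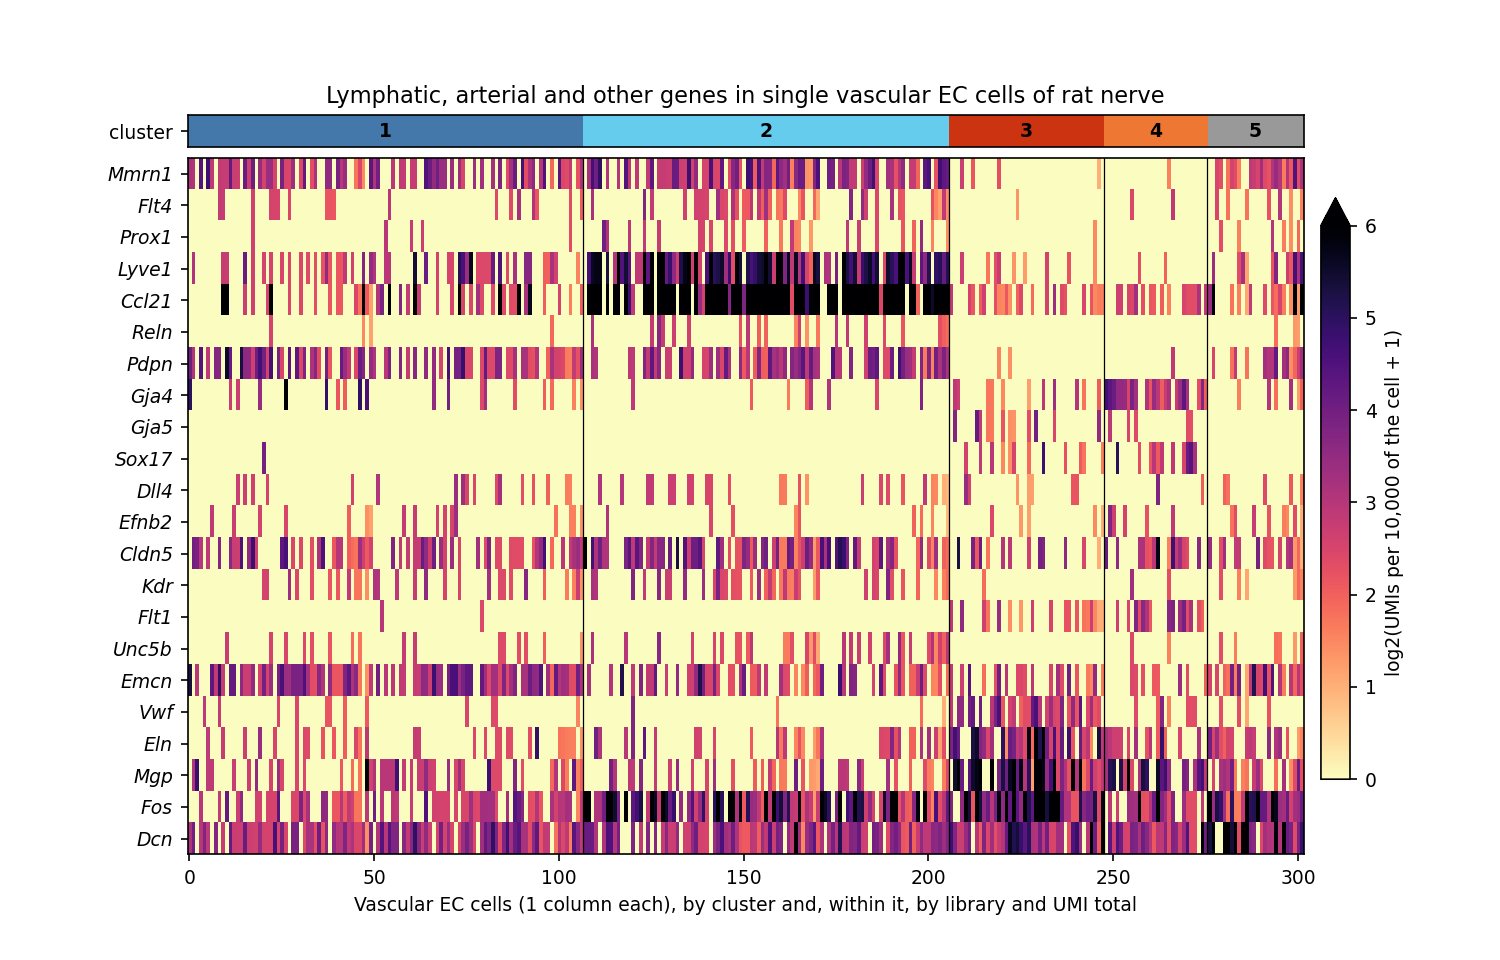
Each of the 302 vascular EC cells is a column, ordered by cluster, and each row is a gene, coloured by log2 of 1 plus its UMIs scaled to an equal total per cell. Mmrn1 and Pdpn fill clusters 1 and 2, Ccl21 and Lyve1 mainly cluster 2, and Gja5, Sox17 and Flt1 lie in clusters 3 and 4. Dcn lies in all clusters, with 29.9% of its UMIs in cluster 5 and 27.0% in cluster 3.

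Cells with Mmrn1 came in 2 forms that Ccl21 set apart. In cluster 2 the median cell gave 7.00% of its UMIs to Ccl21 in library 1 and 7.54% in library 2, with maxima of 25.1% and 19.2%. In cluster 1 the medians were 0 in both. The split was nearly clean: 51 and 33 vascular EC cells were over 1%, and just 1 and 4 lay between 0.5% and 2%. These 84 cells held 98.5% of the vascular EC Ccl21 UMIs, and the highest T cell reached 0.207%. Single cells of other types lay higher, up to 5.51% in nmSC, 4.96% in PF4 MC and 2.71% in MHC II APC.

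The 84 cells with over 1% Ccl21 were compared with the 117 cells that had Mmrn1, Flt4 or Prox1 but less Ccl21, a split chosen after the values were seen. Median depths were close, at 2175 and 2343 UMIs. Cldn5 was found in 63.1% and 63.2%. Prox1 had helped to choose the second set and is not compared between the sets. It stood at 69.9 and 66.3 CPM in the Ccl21-high cells of the 2 libraries. By cluster it stood at 7.98 and 34.6 CPM in cluster 1 and at 114 and 109 in cluster 2. Lyve1 stood at 3858 and 2900 CPM in the Ccl21-high cells of the 2 libraries against 317 and 430 in the others. Reln stood at 140 and 142 CPM against 11.5 and 16.1. Emcn, a sialomucin of endothelium, went the other way, at 280 and 275 CPM against 720 and 790. Gja4 was found in 4 of the 84 Ccl21-high cells (4.76%, interval 1.31% to 11.8%) and in 27 of the 117 others (23.1%, 15.8% to 31.8%), with 14 of 59 and 13 of 58 cells in the 2 libraries. Immediate early genes also differed, as the summed list stood at 7140 and 7420 CPM in cluster 1 and at 18548 and 15627 in cluster 2, and their part in the split was not tested.

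**Figure D4:**
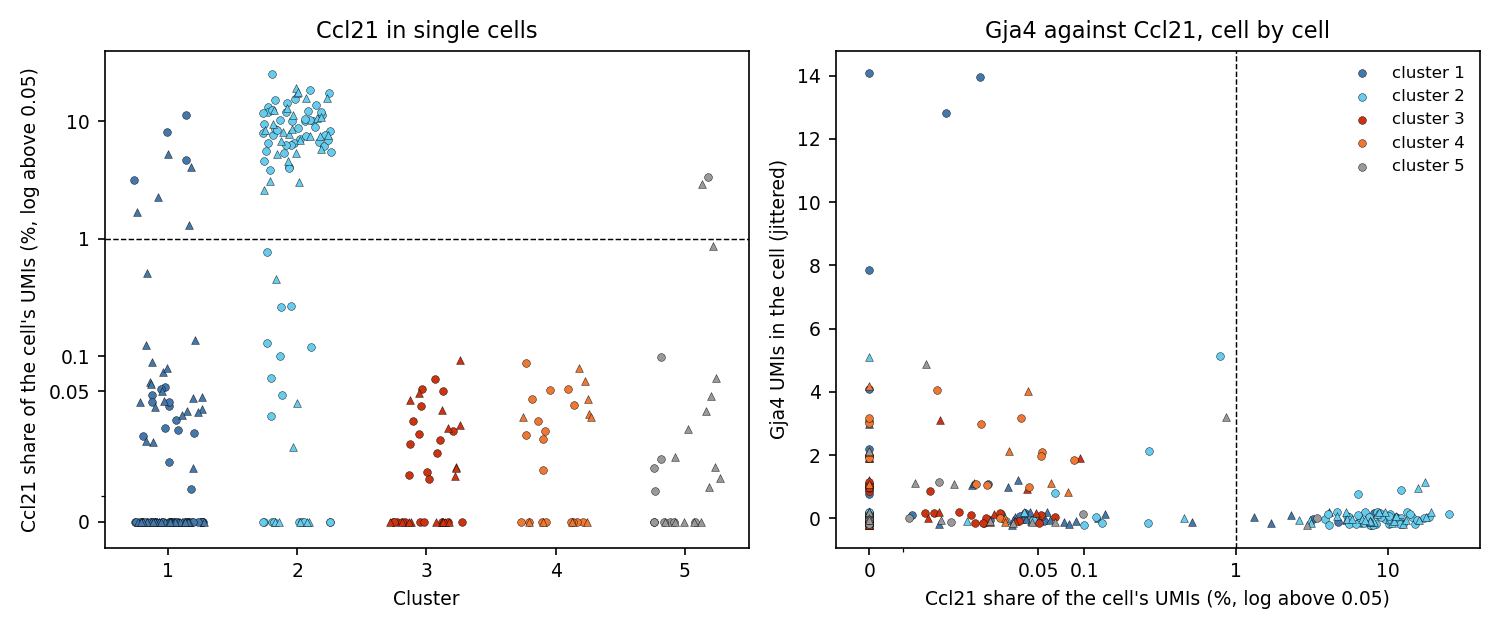
Left, the share of each cell's UMIs that were Ccl21, by cluster, on an axis that is linear to 0.05% and logarithmic above it; right, Gja4 UMIs against that share. Circles are library 1, triangles library 2, and the dashed line marks 1%. Cluster 2 lies mostly above the line, and Gja4 reaches 1 UMI at most to its right.

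Cluster 1 was led by Hamp, the iron hormone hepcidin, at 1213 and 229 CPM against 57.3 and 7.47 in the rest of vascular EC, and by Tfpi2, a protease inhibitor, at 2050 and 1628 CPM against 276 and 460. Ednrb, the endothelin B receptor, stood at 184 and 201 CPM against 43.7 and 26.2. Cluster 2 was led by Adgrg3, an adhesion-class receptor, Ccl21 and Reln, and its leading genes included the growth factors Angpt2 and Pgf, with all 30 Pgf UMIs of vascular EC. These genes rank the same cells that were clustered, so their values are a description.

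Gja4 was found in all 5 clusters, as were Dll4 and Efnb2. Cluster 4 had it in 23 of 28 cells (82.1%) at 792 and 625 CPM. Cluster 1 had it in 19 of 107 cells, at 471 CPM in library 1 and 90.1 in library 2, and cluster 3 in 11 of 42 cells at 58.4 and 131. The library difference rested on 4 cells of cluster 1, all in library 1, with 14, 14, 13 and 8 Gja4 UMIs and together 29.2% of the 168. They had 0, 1, 2 and 3 Mmrn1 UMIs and 0 of Gja5 and Sox17. Without them library 1 stood at 132 CPM in place of 228, beside 136 in library 2, and cluster 4 held 42.9% of the remaining UMIs and cluster 1 19.3%. No cell with Gja5 or Sox17 had more than 4 Gja4 UMIs.

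The VEGF receptors divided the clusters too. Kdr, the main receptor for VEGF-A, had 88.1% of its 109 UMIs in clusters 1 and 2. Flt1, the decoy-type receptor, had 96.7% of its 61 in clusters 3 and 4. Nrp2, a co-receptor of Flt4, had 84.2% in clusters 1 and 2 and did not differ from microvasculatory EC, at 128 and 124 CPM against 132 and 123. All of these shares are to be read against the 61.4% and 26.7% of UMIs that the cluster pairs held.

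Notch genes are given beside the share of all UMIs, 61.4% in clusters 1 and 2 and 26.7% in clusters 3 and 4. Singly, clusters 1, 2, 3 and 4 held 29.9%, 31.5%, 19.0% and 7.69%. Dll4 had 70.6% of its 68 UMIs in clusters 1 and 2, not far above the share of that pair. The target gene Hes1 had 60.2% of 83 in cluster 2 and 20.5% in cluster 1. Dll1 had 69.6% in clusters 3 and 4, from 23 UMIs only. Notch1, the receptor, had 59.8% of its UMIs in clusters 1 and 2, 12.5% in cluster 3 and 15.2% in cluster 4. Of 7 Notch genes with enough UMIs, Dll4 and Hes1 were higher than in microvasculatory EC and Mfng lower. Unc5b, a netrin receptor listed as arterial, had 69.4% of its 85 UMIs in cluster 2 and 18.8% in cluster 1. Among connexins, Gja5 had 86.1% of its 36 UMIs in cluster 3. Gja1 had 55.1% of 167 in clusters 1 and 2 and 17.4% in cluster 4.

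Some matrix genes lay mostly in cluster 3 and others did not. Eln, elastin, had 61% of its 400 UMIs there, at 1334 and 1557 CPM, and Mgp, an inhibitor of calcification, 62.6% of 971, at 4030 and 2823 CPM. Fbln5 and Ltbp4, elastic fibre proteins, had 55.8% of 52 and 47.7% of 325 UMIs in cluster 2, and 9.62% and 23.4% in cluster 3. Clusters 2 and 3 held 31.5% and 19.0% of all UMIs. Vwf, the platelet-binding von Willebrand factor, had 76.3% of 139 in cluster 3. Fibroblast markers moved with cluster 3, the 7 genes summing to 10056 and 13038 CPM there, 2881 and 6542 in cluster 4, 2425 and 3471 in cluster 1, and 2620 and 3806 in T cells. Annotated fibroblasts summed to 47955 and 45349 CPM and had Mgp at 1845 and 1847 and Eln at 517 and 526. Eln and Mgp were higher in cluster 3 than in annotated fibroblasts, in both libraries, and the fibroblast list was lower. Microvasculatory EC had Mgp at 2268 and 2211 CPM and Eln at 486 and 321. The part of fibroblast RNA in cluster 3 was not tested. In cluster 5 the fibroblast list stood at 26158 and 8751 CPM, and its part in that cluster was not tested.

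**Figure D5:**
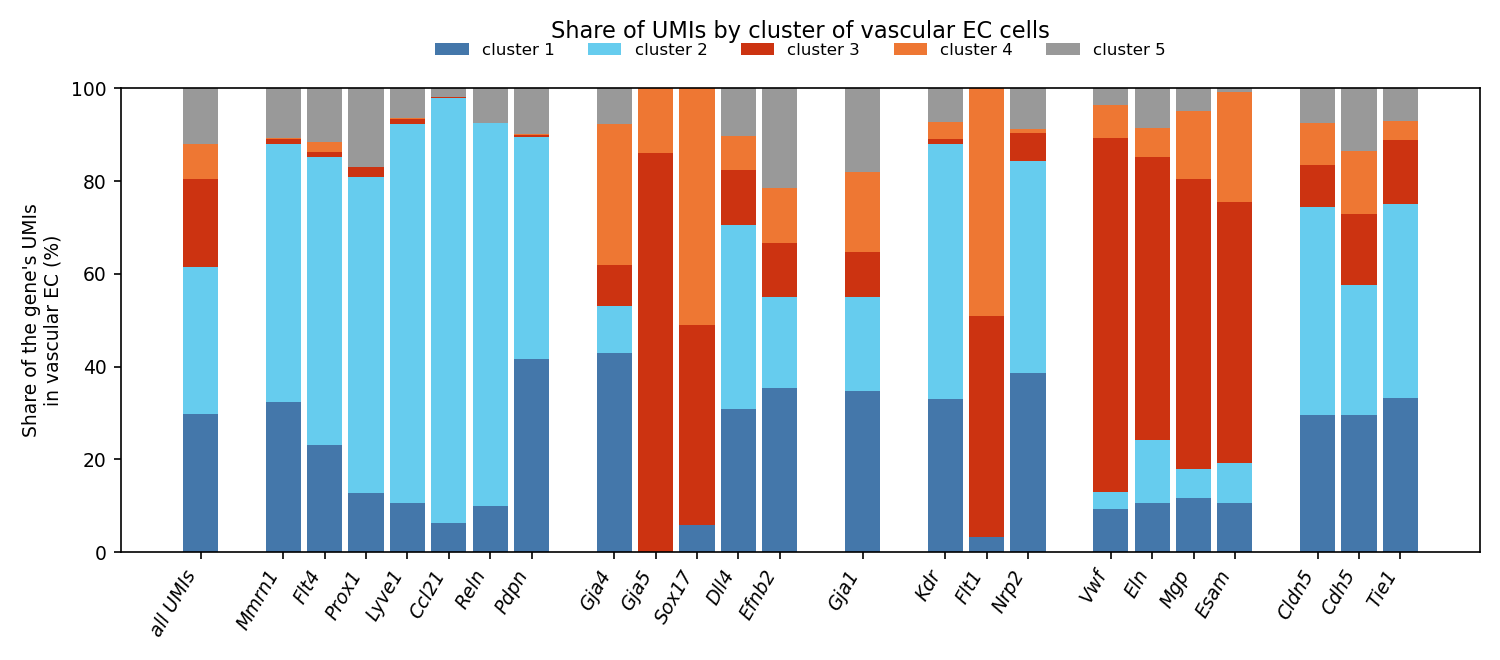
Stacked bars of the percent of each gene's vascular EC UMIs by cluster, with the share of all UMIs at left. Gja5, Sox17, Flt1, Vwf, Eln and Mgp lie mostly in clusters 3 and 4, the lymphatic genes and Kdr in clusters 1 and 2, and Gja4 in all 5.

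Beyond the core lists, 3391 genes had enough UMIs to set the lymphatic class beside the arterial class. Of these 78 (2.3%) were more than 2-fold higher in the lymphatic class in each library and 106 (3.13%) lower. With TMM scaling, which moved the ratios by 0.18 and 0.62 on the log2 scale, the split turned to 172 higher and 65 lower. The 9 arterial-class cells of library 2 limit both counts: 887 genes had 0 UMIs there, and for 880 of them the fold could not be called, because 3 counts in so few cells already amount to 146 CPM. The 10 highest in the lymphatic class were Akap12, Ifi27l2b, Ccnd1, Tgfbi, Tgif1, Ccl2, Abi3bp, Sdc4, Dusp2 and Lrg1. Akap12, a kinase scaffold, stood at 1248 and 1362 CPM against 110 and 97.4, and the monocyte chemokine Ccl2 at 4912 and 5888 CPM against 783 and 828. The 10 highest in the arterial class were LOC500300, Stom, MGC105649, Adgrg1, Srgn, Slc9a3r2, Phlda3, Mgp, Entpd1 and Cd93. Entpd1, an enzyme that degrades extracellular ATP, had 21 UMIs there against 13 in the much larger lymphatic class.

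Few list genes outside the core passed the fold between the classes. Of 10 other arterial genes with enough UMIs, 0 were higher in the lymphatic class and 3 were lower (Fbln2, Eln and Mgp). The other lymphatic genes had a median log2 ratio of 2.32 over 5 genes, against 0.11 over all genes, but Cldn11, Ptx3, Sema3d and Nrp2 had 0 arterial-class UMIs in library 2 and could not be called there. Of 12 general endothelial genes, Emcn was higher and Esam and Erg were lower. Nos3, the endothelial nitric oxide synthase, and Thbd, thrombomodulin, were lower in the lymphatic class.

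Markers of other cell types were low in vascular EC apart from the fibroblast genes. The 11 smooth muscle and pericyte markers summed to 65.1 and 92.2 CPM, with Cnn1, Des and Notch3 at 0 in both libraries. Of these Rgs5, a regulator of G protein signalling, was past 2-fold, at 34.6 and 41.3 CPM against 4.83 and 1.86 in microvasculatory EC, and the leukocyte gene Ptprc had 5 UMIs. The 10 macrophage markers summed to 482 and 631 CPM, near the 421 and 620 of T cells. Fibroblast markers summed to 6450 and 6052 CPM in vascular EC and to 4461 and 5504 in microvasculatory EC, and 0 of 7 differed by 2-fold in both libraries. The 10 immediate early genes summed to 15088 and 12495 CPM against 7564 and 5996, with Fosb, Jun, Atf3 and Dusp1 past 2-fold. Immediate early genes are known to respond to enzymatic digestion, and their part in the comparison of the endothelial types was not tested.

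Over the 18 points formed by 9 annotated types and 2 libraries, the 5 genes whose log level followed Mmrn1 best were Ccl21 (Pearson r 0.92), Flt4 (0.91), Map3k2 (0.86), Cldn5 (0.86) and Nnat (0.84). For Gja4 they were Synm (0.95), Lbp (0.92), Pcp4l1 (0.92), Ackr4 (0.91) and Cldn11 (0.91). Points of a library share its depth and its free RNA, so these values rank genes only.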

How the data were processed

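UMI counts of 32883 genes in 12500 barcodes of 2 rat libraries were used as the authors deposited them, with the authors' cell type names; Cell Ranger 3.0.2 and the build Rnor_6.0 are named in the submitters' processing notes. How cells were filtered and how the type names were set is not given in the sources used here. Members and the 25 gene lists (225 genes) were chosen with earlier results of these data known. Of the list genes, 10 were not found under their symbols and 2 stood on 2 identifiers, and they were left out.

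Counts were summed per type and library with pandas 2.3.3 and scipy 1.17.1 under Python 3.11.15 (arrays in numpy 2.4.6, figures in matplotlib 3.10.9) and scaled to CPM of all UMIs. A gene was past the fold where the ratio exceeded 2 in each library with at least 20 UMIs in all, 0 being replaced by 3 counts, which can call the other group higher and never lower. Intervals are exact at 95% (Poisson for levels, Clopper-Pearson for shares). Named genes are list members, the 12 highest and 6 lowest ratios over microvasculatory EC with 20 UMIs in the higher type, the 10 in each direction between classes, and the 5 most like Mmrn1 and Gja4 by Pearson correlation of log2(CPM + 1) among genes with 100 UMIs. Vascular EC were clustered with scanpy 1.11.5 (1500 variable genes outside all lists, 10 components, 15 neighbours, Leiden resolution 0.6), and doublets were called with Scrublet per library. Alternatives were other UMI limits, thinning to 1000 UMIs, TMM scaling (edgeR 4.0.16 in R 4.3.3), no doublets, each library alone, and, added after seeing the data, shorter core lists, no cluster 5, and 3 counts in place of 0 in either direction. No count model was fitted, because the rat arm has 1 group.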

Additional observations from a re-analysis of the deposited data

Results flagged for a closer look

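Among the 12500 barcodes, 140 have no cell type name and entered no comparison. They held the vascular EC markers above the level of T cells, which served as the control for free RNA. Mmrn1 stood at 399 CPM (interval 338 to 469) against 0.902 in T cells, from 150 UMIs in 5 barcodes. Flt4 stood at 74.5 CPM against 0.451, from 28 UMIs in 4 barcodes. Cldn5 stood at 47.9 CPM against 2.25, from 18 UMIs in 7 barcodes, and Gja4 at 29.3 CPM against 0.451, from 11 UMIs in 6. Ccl21 gave 2819 UMIs in 52 of these barcodes, 7503 CPM against 201 in T cells, while Gja5 gave 2 UMIs in 1 barcode.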

How the results depend on the processing

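No paired analysis was possible because the results come from no test; ratios between types or classes were taken within each library. The lymphatic class was the largest under each core-list limit, but its share moved: with at least 1 core UMI the lymphatic, arterial, both and neither classes held 47.4%, 6.95%, 42.4% and 3.31% of cells, and with at least 3 the lymphatic, both and neither classes held 56.3%, 5.63% and 27.8%. Thinned to 1000 UMIs they held 48.3%, 5.96%, 3.97% and 41.7%. Chosen after seeing the data, a lymphatic list without Ccl21 and Pdpn gave 52.0%, 15.9%, 7.62% and 24.5%, and an arterial list without Gja4, Dll4 and Efnb2 gave 74.5%, 4.97%, 1.32% and 19.2%. By library the lymphatic class ran from 61.8% to 64.5%, the arterial from 6.62% to 14.5%, both from 9.64% to 16.2% and neither from 11.4% to 15.4%. Genes higher than in microvasculatory EC numbered 671 with no minimum of UMIs; each library alone gave 436 to 478 higher and 384 to 393 lower. Between classes, no minimum gave 331 lower genes, 3 counts in place of 0 in either direction 159 lower, TMM scaling 172 higher and 65 lower, a list without Ccl21 and Pdpn 170 higher, and single libraries 259 to 404 higher and 154 to 167 lower. Gja5 was 34.2 CPM as a mean over cells and 45.0 without cluster 5. Levels by single library ran from 553 to 619 CPM for Mmrn1, 102 to 108 for Flt4, 19657 to 25917 for Ccl21, 136 to 228 for Gja4, 36.4 to 42.7 for Gja5 and 403 to 567 for Cldn5. In all, 60 of 90 alternative values stayed within their limit and 30 moved; the cause was not tested. Resolution 0.3 gave 3 clusters and resolution 1.0 gave 8. The cells of cluster 3 stayed together at both, as did those of cluster 4, which does not show whether each stayed apart from other cells. Cluster 5 kept 57.7% and 50% of its cells together. Cluster 1 kept 100% and 47.7% and cluster 2 92.9% and 43.4%.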

Other observations

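Further genes divided the cells with lymphatic genes by cluster. Car4, a membrane carbonic anhydrase of capillaries, had 81.6% of its 38 vascular EC UMIs in cluster 2, and Lrg1, a secreted glycoprotein listed as venous, had 65.9% of 375 there. Emilin1, an elastic fibre protein, had 74.2% of 31 in cluster 2. Ccl2, the monocyte chemokine, had 54.0% of its 4294 UMIs in cluster 1 and 25.6% in cluster 2, although cluster 1 held 29.9% of all UMIs and cluster 2 31.5%. Klf4 had 39.1% of 1217 in cluster 2 and 33.3% in cluster 3, where the immediate early list was also high, at 19118 and 17083 CPM.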
